A study of Mus musculus with 56 samples.

Results

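Slow muscle fibres build their contractile machinery from their own forms of myosin, troponin and the calcium pump. Described here are 8 genes that encode such slow forms, namely Myh7, Myh7b, Myl2, Myl3, Tnni1, Tnnt1, Tnnc1 and Atp2a2. They were taken by name from the 14871 genes of the deposited table, by a rule that uses no measured value but was set with earlier results of these data known, and all 8 passed the filter on low values that left 13017 genes tested. The samples were whole tibialis anterior, a mostly fast muscle at the front of the lower leg of the mouse, profiled by bulk RNA sequencing. The question behind the design was what mechanical knock-out (mKO) of titin, the giant elastic protein of the sarcomere, does to skeletal muscle. As background, the mKO allele places into titin a short stretch that the TEV protease (from a plant virus) cuts, so that titin is severed where the protease is made.

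Muscles of wild-type (WT), heterozygous (HET mKO) and homozygous (HOMO mKO, HOM in the plots) mice received either saline or an adeno-associated virus (AAV) whose cargo is TEV protease fused to green fluorescent protein. They were collected 3, 7 or 21 days post injection (dpi). WT muscle gave 3 saline and 5 AAV libraries at 3 dpi, 3 and 4 at 7 dpi, and 4 and 4 at 21 dpi. Homozygous muscle gave 4 and 4 at 3 dpi, 4 and 5 at 7 dpi, and 4 and 4 at 21 dpi, and heterozygous muscle gave 4 and 4 at 7 dpi. WT muscle given AAV carried the protease without its site, and saline-injected mKO muscle carried the site without the protease. Strain, sex and age of the mice and the promoter of the virus are not stated in the labels. Whether the samples of 1 group were different mice is not stated either, so p-values measure the spread between these samples, part of which may be technical.

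As background, a muscle fibre contracts when calcium released inside it binds troponin C, which moves troponin I and troponin T on the thin filament and lets myosin heads, each a heavy chain with 2 kinds of light chain, pull. Slow fibres use slow forms of these proteins and pump calcium back with SERCA2 (Atp2a2) in place of the fast SERCA1, and several of the same slow forms serve the heart. Mouse tibialis anterior holds few slow fibres, and regenerating or developing fibres also make slow troponins. In bulk RNA fewer fibres of a type and less RNA per fibre cannot be told apart.

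Per the GENCODE M21 annotation of the GRCm38 genome, the 8 genes lie at 8 separate loci. Myh7 (ENSMUSG00000053093, chr14:54970684-54994626, minus strand), the slow heavy chain, and Myh7b (ENSMUSG00000074652, chr2:155611212-155634307, plus strand), a relative of it, encode the motor. Myl2 (ENSMUSG00000013936, chr5:122100951-122113472, plus strand) and Myl3 (ENSMUSG00000059741, chr9:110741861-110769798, plus strand) encode the slow regulatory and essential light chains. Tnni1 (ENSMUSG00000026418, chr1:135779434-135810989, plus strand), Tnnt1 (ENSMUSG00000064179, chr7:4504570-4516382, minus strand) and Tnnc1 (ENSMUSG00000091898, chr14:31208312-31211729, plus strand) encode slow troponin I, slow troponin T and slow troponin C. Atp2a2 (ENSMUSG00000029467, chr5:122453513-122502225, minus strand) encodes the pump. Myh7 lies beside Myh6, a near-identical heavy chain, so the split of reads between those 2 genes is uncertain. Myh7b, Myl3 and Tnnc1 overlap Trpc4ap, Pth1r and Nisch on the opposite strand. Opposite-strand genes absent from the deposited table also overlap Myh7 (Mhrt, Gm29015, Gm17428 and Gm31251), Myl2 (Ccdc63) and Atp2a2 (Gm43361). Whether reads were counted by strand is not stated, so reads of such pairs may not have been told apart.

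The stretch upstream of the start was read from RefSeq (GRCm38.p6) for the 3 slow troponins, which varied together, for Myl3, which did not vary with them, and for Myh7, which varied with them more closely in saline than in AAV libraries. Each line holds the 218 bases from 250 to 33 before the RefSeq start, 5′ to 3′ on the strand of the gene, at chr1:135799171-135799388 (plus) for Tnni1, chr7:4516008-4516225 (minus) for Tnnt1, chr14:31208062-31208279 (plus) for Tnnc1, chr9:110763428-110763645 (plus) for Myl3 and chr14:54994659-54994876 (minus) for Myh7. Capitals mark matches on either strand to CANNTG (E-box, the letters bound by myogenic factors such as MyoD), GGAATG (MCAT, bound by TEAD factors) or CArG (bound by serum response factor).
Tnni1: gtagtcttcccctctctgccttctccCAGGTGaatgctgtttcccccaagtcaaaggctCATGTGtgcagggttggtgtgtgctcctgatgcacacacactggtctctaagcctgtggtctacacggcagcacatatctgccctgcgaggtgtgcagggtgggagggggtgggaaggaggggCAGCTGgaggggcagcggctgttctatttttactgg
Tnnt1: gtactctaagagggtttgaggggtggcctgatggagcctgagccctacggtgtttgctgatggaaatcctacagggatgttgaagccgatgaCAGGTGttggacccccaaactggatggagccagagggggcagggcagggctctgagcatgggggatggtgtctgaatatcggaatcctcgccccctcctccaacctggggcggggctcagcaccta
Tnnc1: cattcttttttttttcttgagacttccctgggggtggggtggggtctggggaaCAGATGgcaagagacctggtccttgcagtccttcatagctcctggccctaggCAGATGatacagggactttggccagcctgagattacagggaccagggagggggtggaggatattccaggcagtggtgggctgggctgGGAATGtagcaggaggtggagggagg
Myl3: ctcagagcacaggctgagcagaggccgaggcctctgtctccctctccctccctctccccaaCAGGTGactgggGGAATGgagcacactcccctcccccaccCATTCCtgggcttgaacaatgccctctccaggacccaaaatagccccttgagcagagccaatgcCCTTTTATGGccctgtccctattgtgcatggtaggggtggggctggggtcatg
Myh7: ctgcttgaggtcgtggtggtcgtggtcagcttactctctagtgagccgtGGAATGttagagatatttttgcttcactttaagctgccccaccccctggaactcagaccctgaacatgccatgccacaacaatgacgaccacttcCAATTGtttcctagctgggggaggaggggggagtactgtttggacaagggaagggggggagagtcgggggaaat
An E-box was present in 6 of the 6 member windows read (these and that of Myh7b), against 61.9% of all 32851 windows of the same length. GGAATG was present in 3, those of Myh7, Myl3 and Tnnc1, against 11.4% of all windows, and CArG in 1, that of Myl3, against 1.29%. TATAAA (9.87% of all windows) and MEF2 (2.59%) had a match in 0 of the 6. The windows end 33 bases before the start, so a TATA box nearer to the start could not have been found. These matches are letters in a window and were not tied to binding.

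The libraries held 6.9 M to 27.18 M reads with a median of 21.69 M, and homozygous AAV replicate 2 at 7 dpi was the lowest, the next being at 14.98 M. The 8 skeletal muscle fibre markers were high in all libraries, with summed values of 39660 to 90906 normalised read counts. Of 6 heart muscle markers Tnni3 and Myh6 could be analysed, and they stayed low (Tnni3 at 0 to 68 reads, with 0 reads in 4 libraries, and Myh6 at 1.04 to 10.8 normalised counts). Viral transgene averaged at most 0.143 normalised counts in any saline group and 17.2 to 756 in the AAV groups.

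Values are normalised read counts as deposited, close to CPM. Differences are log2 ± SE of log2(value + 1) from limma, fitted over all 13017 genes and 56 libraries, and calls needed an adjusted p (Benjamini-Hochberg over all genes) under 0.05. Overlap between the libraries of 2 groups is described for single members only. The share of all genes without overlap was not counted. Within 10 saline-injected WT libraries Myl3 had the highest level per length, at a median of 33.9 normalised counts per kb of exon (22.7 to 113), and Atp2a2 followed at 7.23 (5.45 to 12.6). On the same per-length scale the medians were 3.77 (0.251 to 12.9) for Myl2, 3.61 (2.04 to 8.68) for Tnnt1, 2.86 (1.1 to 10.3) for Tnnc1, 1.36 (0.376 to 9.71) for Myh7, 0.912 (0.686 to 1.34) for Myh7b and 0.758 (0.499 to 2.35) for Tnni1. Myl3 did not overlap any other member in that order, whereas from Atp2a2 down every neighbouring pair overlapped.

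**Figure D1:**
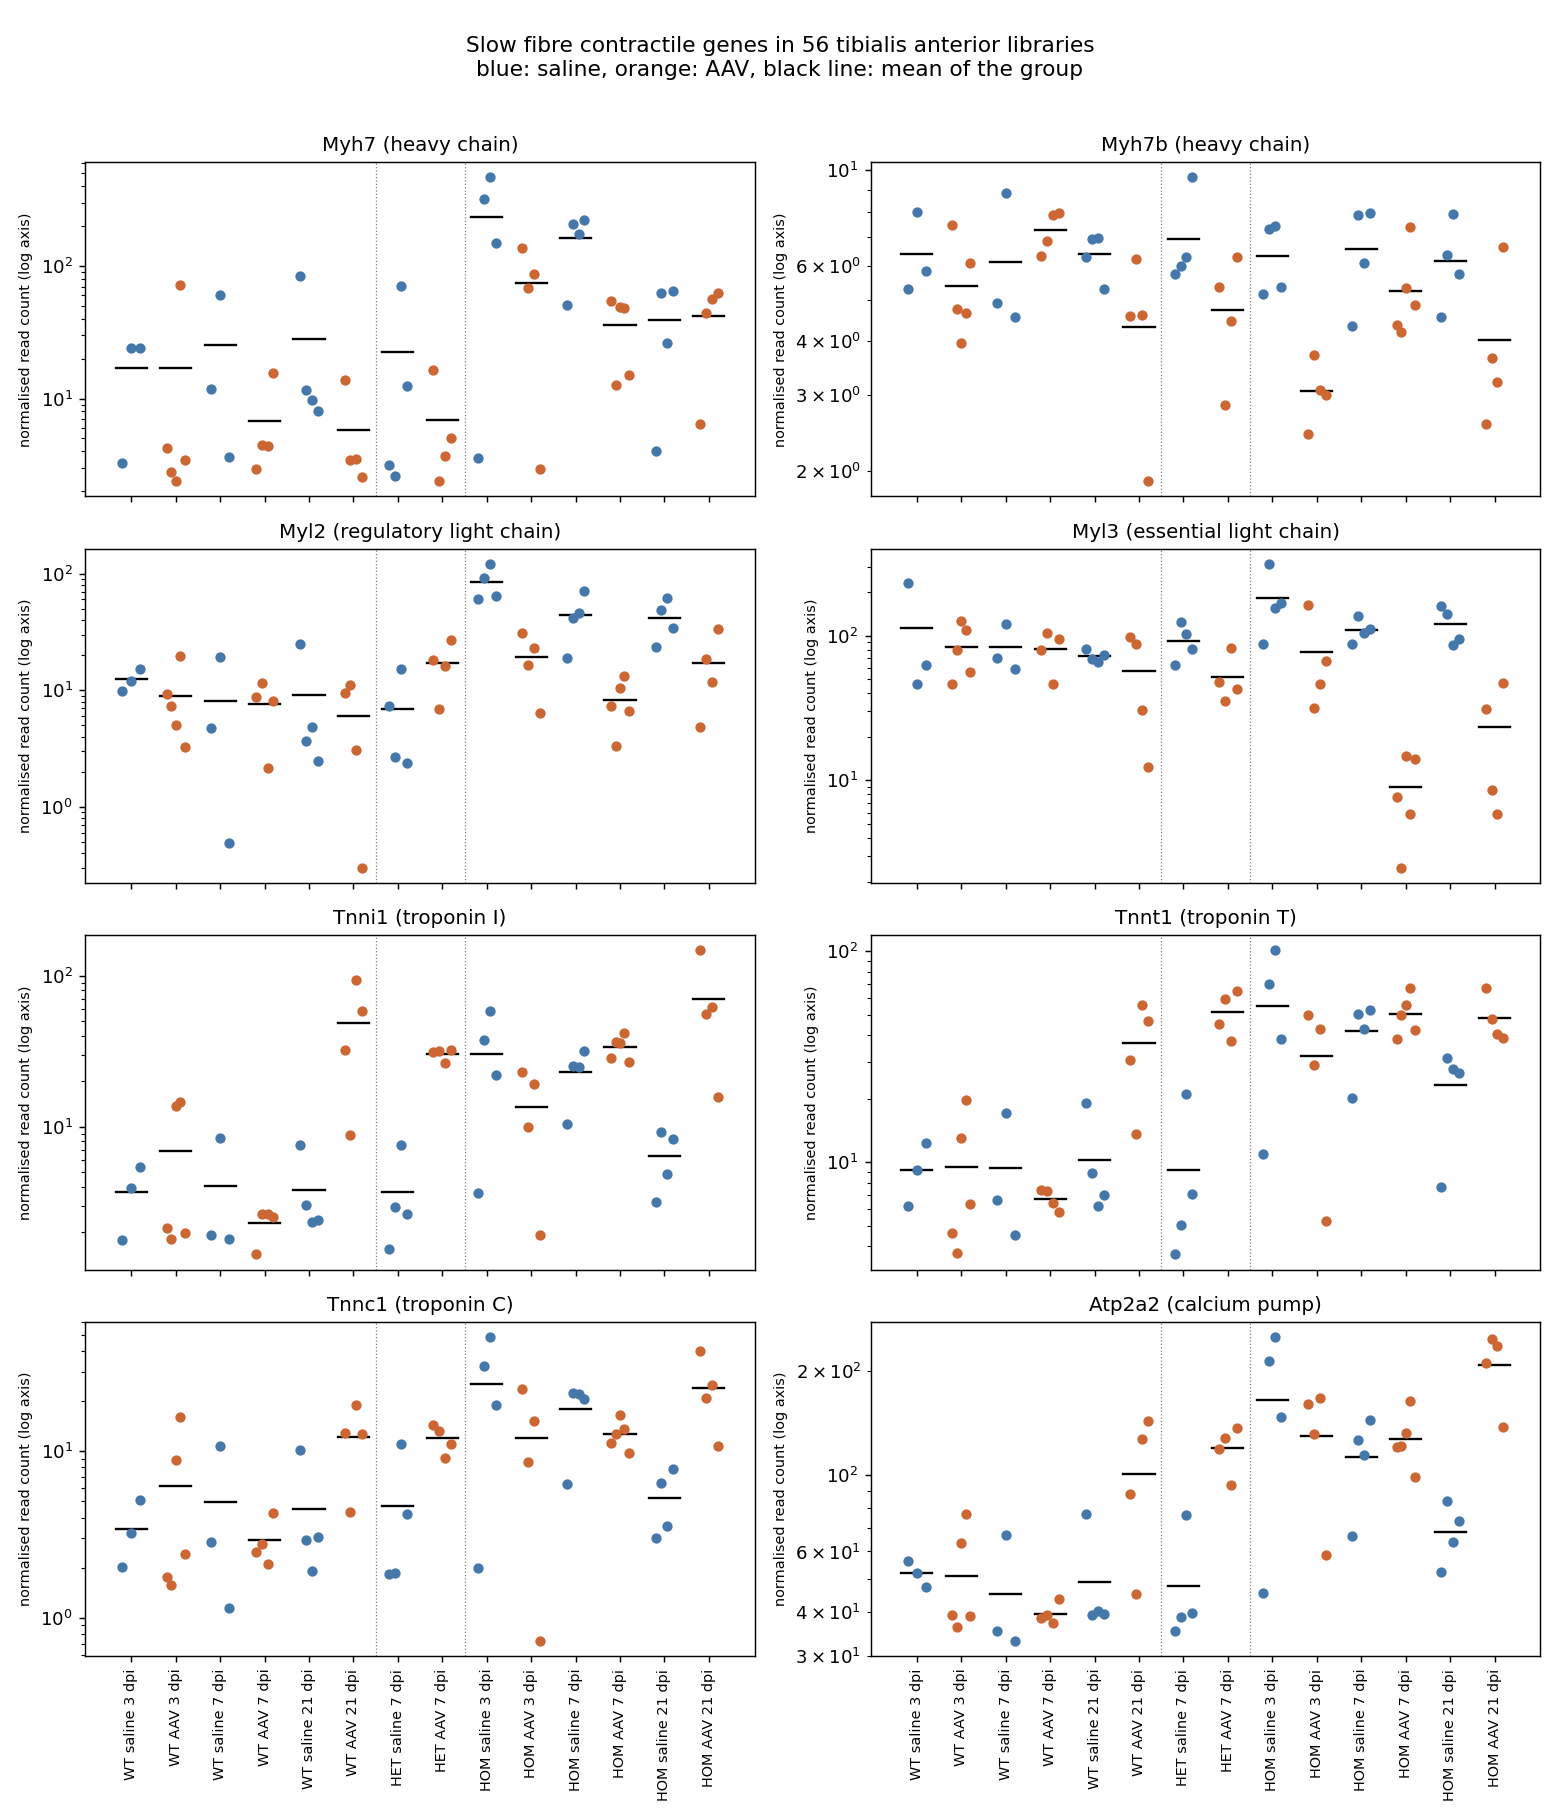
Normalised read count (log axis) of each of the 8 genes in every library, by group, with saline in blue, AAV in orange and the group mean as a black line. Myl3 drops to 2.49 to 14.7 in homozygous AAV muscle at 7 dpi, while Tnni1 stands at 26.3 to 32.1 in heterozygous AAV muscle at 7 dpi against 1.55 to 7.56 with saline.

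Saline-injected homozygous muscle held more of several slow transcripts than saline-injected WT muscle by limma, though no single call held in every setting. At 3 dpi 3 of 8 members were called higher, against 1.71% of all genes, at 7 dpi 2 of 8 against 1.63%, and at 21 dpi 1 of 8 against 2.6%, while 0 were called lower on any day, against 0.576%, 0.453% and 0.722%. Their median log2 difference was 2.09, 2.02 and 0.62 on the 3 days, beside -0.00, -0.01 and -0.01 over all genes. On the same days edgeR called 4, 0 and 0 members and DESeq2 6, 3 and 0. With 1 library left out, the limma count fell as low as 0 on each day.

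Myl2, the regulatory light chain, was the member called on all 3 days. It stood at 60.1, 91, 121 and 64.2 in homozygous saline muscle at 3 dpi and at 9.83, 12.1 and 15.2 in WT saline muscle. The homozygous libraries all lay above the WT ones (log2 difference 2.63 ± 0.71, limma adjusted p = 0.0302). At 7 dpi Myl2 read 19, 41.8, 45.6 and 71.2 against 4.71, 19.1 and 0.49 (2.89 ± 0.71, adjusted p = 0.0147), the lowest value resting on 10 reads, and WT replicate 2 lay just above the lowest homozygous library. At 21 dpi it read 23.3, 48.4, 61.7 and 34.2 against 25.1, 3.64, 4.87 and 2.47 (2.52 ± 0.65, adjusted p = 0.0177), with WT replicate 1 inside the homozygous range. The Myl2 call was lost without any one of 5 libraries at 3 dpi, 3 at 7 dpi and 5 at 21 dpi, and in edgeR's quasi-likelihood test on all 3 days, with its log2 difference staying between 1.94 and 3.82.

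Tnnt1 read 11, 69.8, 101 and 38.5 in homozygous saline muscle at 3 dpi against 6.19, 9.21 and 12.3 in WT (2.12 ± 0.59, limma adjusted p = 0.0378). At 7 dpi it read 20.3, 50.7, 43 and 52.9 against 6.65, 17.2 and 4.51, with no overlap (2.14 ± 0.59, adjusted p = 0.0366), a call lost in edgeR and without any one of 5 of the 7 libraries (adjusted p up to 0.245). Atp2a2 read 45.5, 213, 250 and 147 at 3 dpi against 56.2, 51.9 and 47.5 (1.39 ± 0.38, adjusted p = 0.0328). In all 3 of these sets replicate 1 was the lowest homozygous library, and at 3 dpi it lay inside or under the WT range for Tnnt1 and Atp2a2. The same library was low for the heavy chain as well, with Myh7 at 3.56 there and at 320, 466 and 149 in the other 3, against 3.24, 24 and 24 in WT (2.86 ± 1.21, adjusted p = 0.262). Without homozygous saline replicate 1 at 3 dpi, 6 of 8 members were called higher, Myh7 (4.35 ± 1.15, adjusted p = 0.0275), Tnni1 (3.07 ± 0.69, adjusted p = 0.00699) and Tnnc1 (2.92 ± 0.68, adjusted p = 0.00942) among them. Without any one of 5 other libraries at 3 dpi 0 were called.

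Myh7b and Myl3 were not called between the saline groups. Myh7b differed by -0.01 ± 0.25, 0.11 ± 0.25 and -0.06 ± 0.23 on the log2 scale at 3, 7 and 21 dpi, and Myl3 by 0.90 ± 0.58, 0.45 ± 0.58 and 0.68 ± 0.53. By 21 dpi Tnni1 and Tnnc1 stood at 6.41 ± 2.85 and 5.23 ± 2.32 normalised counts (SD, n = 4) in homozygous saline muscle, near the WT saline 3.83 ± 2.48 and 4.53 ± 3.84 (n = 4), after 30.4 ± 23.3 and 25.5 ± 19.8 (n = 4) at 3 dpi. The difference between days was not tested for saline muscle. Heterozygous saline muscle was close to WT at 7 dpi, where 0 of 8 members were called by limma, edgeR or DESeq2 and 0 had an unadjusted p under 0.05, against 0.2% of all genes called, and the member differences ran from -0.48 ± 1.21 (Myh7) to 0.21 ± 0.71 (Myl2).

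WT muscle given AAV did not differ detectably from WT saline muscle in any slow member at 3 or 7 dpi. On both days limma, edgeR and DESeq2 called 0 of 8, 0 had an unadjusted p under 0.05, and limma called 0% of all genes. The differences were not narrow for the most variable genes, at -0.91 ± 1.16 and -1.21 ± 1.21 for Myh7 on those days, against -0.21 ± 0.23 and 0.26 ± 0.25 for Myh7b. By 21 dpi 3 of 8 members had risen in WT muscle, against 19.7% of all genes, and 0 had fallen, against 21.3%. These were Tnni1, Tnnt1 and Atp2a2, and the median over the 8 was 0.24 on the log2 scale beside -0.01 over all genes.

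Tnni1, the inhibitory subunit, read 32.1, 8.8, 94.2 and 58.7 in WT AAV muscle at 21 dpi against 7.52, 3.03, 2.34 and 2.43 with saline (log2 difference 3.05 ± 0.65, limma adjusted p = 0.000195). The groups did not overlap, although AAV replicate 2 came close to saline replicate 1. Tnnt1, the tropomyosin-binding subunit, read 30.6, 13.7, 55.9 and 46.8 against 19.1, 8.93, 6.21 and 7 (1.69 ± 0.54, adjusted p = 0.0106), and Atp2a2 read 87.9, 45.1, 127 and 143 against 76.9, 39.2, 40.3 and 39.7 (0.96 ± 0.35, adjusted p = 0.0245). In both of these AAV replicate 2 overlapped the saline libraries. Without WT AAV replicate 3 at 21 dpi Tnni1 alone stayed called (Tnnt1 1.44 ± 0.58, adjusted p = 0.051, and Atp2a2 0.81 ± 0.38, adjusted p = 0.0921), and without replicate 2 of that group 5 of 8 were called, Tnnc1 (1.71 ± 0.70, adjusted p = 0.0414) and, in the lower direction, Myh7b (-0.71 ± 0.24, adjusted p = 0.0137) being added. The Atp2a2 call was lost without any one of 5 of the 8 libraries.

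The myosin genes did not follow in WT muscle at 21 dpi. Myh7 read 13.7, 3.46, 3.52 and 2.57 with AAV against 83.6, 11.6, 9.81 and 8.13 with saline (-1.66 ± 1.12, adjusted p = 0.24), and in each group replicate 1 was far above the rest. Myl2 (-0.47 ± 0.65), Myl3 (-0.75 ± 0.53) and Myh7b (-0.54 ± 0.23, adjusted p = 0.0527) had values on the lower side without a call, and Tnnc1 read 12.9, 4.3, 19 and 12.8 against 10.2, 2.92, 1.91 and 3.04 (1.32 ± 0.65, adjusted p = 0.101). The 10 macrophage markers moved with these changes. All 10 were called higher at 21 dpi in WT AAV muscle, where their summed value was 172 to 584 against 29 to 38.7 with saline, while 0 of 10 were called at 3 or 7 dpi. Of 8 skeletal muscle fibre markers 4 were called lower and Des higher at 21 dpi, with a sum of 51749 to 70131 against 74435 to 77380. Their part in the results was not tested.

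In heterozygous AAV muscle Tnni1, Tnnt1 and Atp2a2 had risen at 7 dpi, 3 of 8 members against 19.6% of all genes called higher, and 0 of 8 down against 20.8%. The median member difference was 1.36 on the log2 scale beside -0.01 over all genes. Tnni1 read 31.4, 31.8, 26.3 and 32.1 with AAV against 1.55, 2.96, 7.56 and 2.63 with saline (2.89 ± 0.65, limma adjusted p = 0.000361). Tnnt1 read 45.1, 59.6, 37.8 and 64.7 against 3.67, 5.06, 21.1 and 7.07 (2.62 ± 0.54, adjusted p = 0.000134). Atp2a2 read 119, 128, 93.2 and 136 against 35.4, 38.8, 76.3 and 39.8 (1.36 ± 0.35, adjusted p = 0.00165). Tnni1, Tnnt1 and Atp2a2 were each without overlap between the groups, and the share of all genes without overlap was not counted. Saline replicate 3 was the highest of its group for each of the 3. The 3 calls held without any single library and in every other setting tried.

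Tnnc1, the calcium-binding subunit, had a value on the same side in heterozygous muscle (14.5, 13.3, 9.1 and 11 against 1.82, 1.86, 11 and 4.22) but missed the threshold (1.44 ± 0.65, adjusted p = 0.075). Without saline replicate 3 it was called (1.88 ± 0.69, adjusted p = 0.0297), as was Myl2 (1.80 ± 0.69, adjusted p = 0.0376), which brought the count to 5 of 8. Myl2 itself read 18.1, 6.9, 16 and 27 against 7.27, 2.7, 15.2 and 2.39 (1.36 ± 0.65, adjusted p = 0.094), and with each pair of equal sample number as a block it was also called (1.36 ± 0.50, adjusted p = 0.0323). The other light chain, Myl3, read 47.9, 35.4, 82.3 and 42.7 against 62.9, 124, 102 and 80.2 (-0.84 ± 0.53, adjusted p = 0.212), and Myh7 differed by -0.78 ± 1.12. Macrophage markers moved here too, with 9 of 10 called higher and a summed value of 120 to 214 against 28.5 to 48.5, and 2 of 8 fibre markers were called lower and 2 (Des and Mylpf) higher, with a sum of 70332 to 85643 against 77069 to 86963. Their part was not tested.

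In homozygous muscle the AAV libraries were compared with the same saline libraries that stood above WT saline in several members, so both sets of differences share them. At 3 dpi the calls were in the lower direction. Lower calls numbered 3 of 8, for Myl2, Myl3 and Myh7b, against 17.2% of all genes, and higher calls 0 of 8 against 17.4%. The median over the 8 was -0.99 on the log2 scale beside -0.01 over all genes. Myl2 read 30.8, 16.3, 22.9 and 6.41 with AAV against the saline 60.1, 91, 121 and 64.2, with no overlap (-2.21 ± 0.65, limma adjusted p = 0.00725). Myh7b read 2.44, 3.71, 3.08 and 3 against 5.14, 7.31, 7.4 and 5.35, again without overlap (-0.84 ± 0.23, adjusted p = 0.00343). Both calls held without any single library and in every other setting tried.

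The third of these, Myl3, read 163, 31.5, 46.1 and 66.8 with AAV at 3 dpi against 87.9, 313, 156 and 169 with saline (-1.36 ± 0.53, adjusted p = 0.0423). AAV replicate 1 lay within the saline range, and the call was lost without any one of 6 of the 8 libraries, by quantile normalization, with only these groups fitted, and in edgeR and DESeq2. The slow troponins and the pump were not called, at -1.0 ± 0.65 for Tnni1, -0.98 ± 0.65 for Tnnc1, -0.75 ± 0.54 for Tnnt1 and -0.20 ± 0.35 for Atp2a2. Their libraries were widely spread in both groups, with Tnni1 at 22.9, 9.97, 19.2 and 1.93 with AAV against 3.66, 37.3, 58.6 and 22.1 with saline. Without saline replicate 1 the lower calls became 6 of 8, Tnni1 (-1.75 ± 0.65, adjusted p = 0.0344), Tnnc1 (-1.83 ± 0.63, adjusted p = 0.0233) and Myh7 (-2.72 ± 1.08, adjusted p = 0.0491) being added. All 10 macrophage markers were called higher, with a summed value of 182 to 431 against 37.3 to 73.5, and 7 of 8 skeletal muscle fibre markers were called lower and 1, Des, higher, with a sum of 54588 to 66770 against 77025 to 88633. The part of either in these differences was not tested.

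Both light chains had their lowest mean of the 3 days in homozygous AAV muscle at 7 dpi. Lower calls numbered 2 of 8, Myl3 and Myl2, against 22.5% of all genes, so the share called lower was near that of all genes. Higher calls numbered 0 of 8 against 20.6%. The median over the 8 was -0.30 on the log2 scale beside -0.01 over all genes. Myl3 read 7.63, 2.49, 14.7, 5.85 and 14 with AAV against 87.6, 136, 104 and 111 with saline, the highest AAV value lying far under the lowest saline one (-3.66 ± 0.51, limma adjusted p = 1.93e-07). The lowest value, in the shallow replicate 2, rested on 20 reads, and the other 4 on 160 to 371. Myl2 read 7.32, 3.34, 10.5, 13.3 and 6.7 against 19, 41.8, 45.6 and 71.2, also without overlap (-2.27 ± 0.62, adjusted p = 0.00281). The Myl3 change stayed between -3.88 and -3.23 and that of Myl2 between -2.62 and -1.92 over all settings and omitted libraries, and neither lost its call.

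Myh7 read 54.3, 12.6, 49.1, 47.8 and 15 with AAV against 51.2, 208, 173 and 223 with saline at 7 dpi (-2.20 ± 1.06, adjusted p = 0.0879), saline replicate 1 being the one library inside the AAV range. With a fit of these 2 groups alone it was called (adjusted p = 0.00448). The troponins and the pump were not called. Tnni1 read 28.6, 36.5, 35.8, 42 and 26.8 against 10.5, 25.2, 24.8 and 31.7 (0.62 ± 0.62), Tnnt1 differed by 0.34 ± 0.51, Tnnc1 by -0.33 ± 0.62 and Atp2a2 by 0.21 ± 0.33. Beside the light chains, 10 of 10 macrophage markers were called higher (summed value 161 to 279 against 35.2 to 50.4), and 6 of 8 fibre markers lower and Des higher (summed value 53507 to 64906 against 84680 to 90861), whose part was not tested.

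At 21 dpi Tnni1, Tnnc1 and Atp2a2 had risen in homozygous AAV muscle, and Myl3 and Myh7b had fallen. Higher calls numbered 3 of 8 against 29.7% of all genes, and lower calls 2 of 8 against 29.6%, so the share of members called was near that of all genes. The median over the 8 was 0.72 on the log2 scale beside -0.00. Tnni1 read 147, 55.9, 62.3 and 15.8 with AAV against 3.19, 9.29, 4.88 and 8.26 with saline (2.97 ± 0.65, limma adjusted p = 0.000118). Tnnc1 read 39.9, 20.9, 25 and 10.7 against 3.03, 6.46, 3.55 and 7.87 (1.95 ± 0.65, adjusted p = 0.00939), and Atp2a2 read 210, 246, 236 and 137 against 52.4, 83.9, 63.7 and 73.4 (1.57 ± 0.35, adjusted p = 0.000158). Tnni1, Tnnc1 and Atp2a2 were each without overlap, and the share of all genes without overlap was not counted. AAV replicate 4 was the lowest AAV library in all 3. Tnnt1 read 67.3, 47.6, 40.5 and 38.7 against 7.66, 31.2, 27.8 and 26.4, also without overlap, but missed the threshold (1.16 ± 0.54, adjusted p = 0.0616).

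Myl3 read 31.1, 8.6, 5.82 and 47.4 with AAV at 21 dpi against 159, 141, 86.4 and 94.2 with saline (-2.71 ± 0.53, adjusted p = 2.58e-05), again with no overlap. Myl2 read 4.83, 18.4, 11.7 and 33.6 against 23.3, 48.4, 61.7 and 34.2 (-1.43 ± 0.65, adjusted p = 0.0556), and it was called lower with each pair of equal sample number as a block (-1.43 ± 0.50, adjusted p = 0.016). Myh7b read 2.57, 3.65, 3.22 and 6.63 against 4.55, 6.34, 7.91 and 5.73 (-0.55 ± 0.23, adjusted p = 0.0352), a call lost without any one of 5 libraries and in edgeR and DESeq2. Myh7 was not called, at 6.47, 44.3, 56 and 62.5 against 4.04, 62.4, 26.1 and 64.4 (0.28 ± 1.12, an SE that leaves either direction open). Replicate 1 was its lowest library in both groups. The macrophage markers (10 of 10 called higher) summed to 186 to 1611 against 20 to 55.5 and the fibre markers (6 of 8 called lower and Des higher) to 39660 to 78299 against 85028 to 90906, and their part was not tested.

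**Figure D2:**
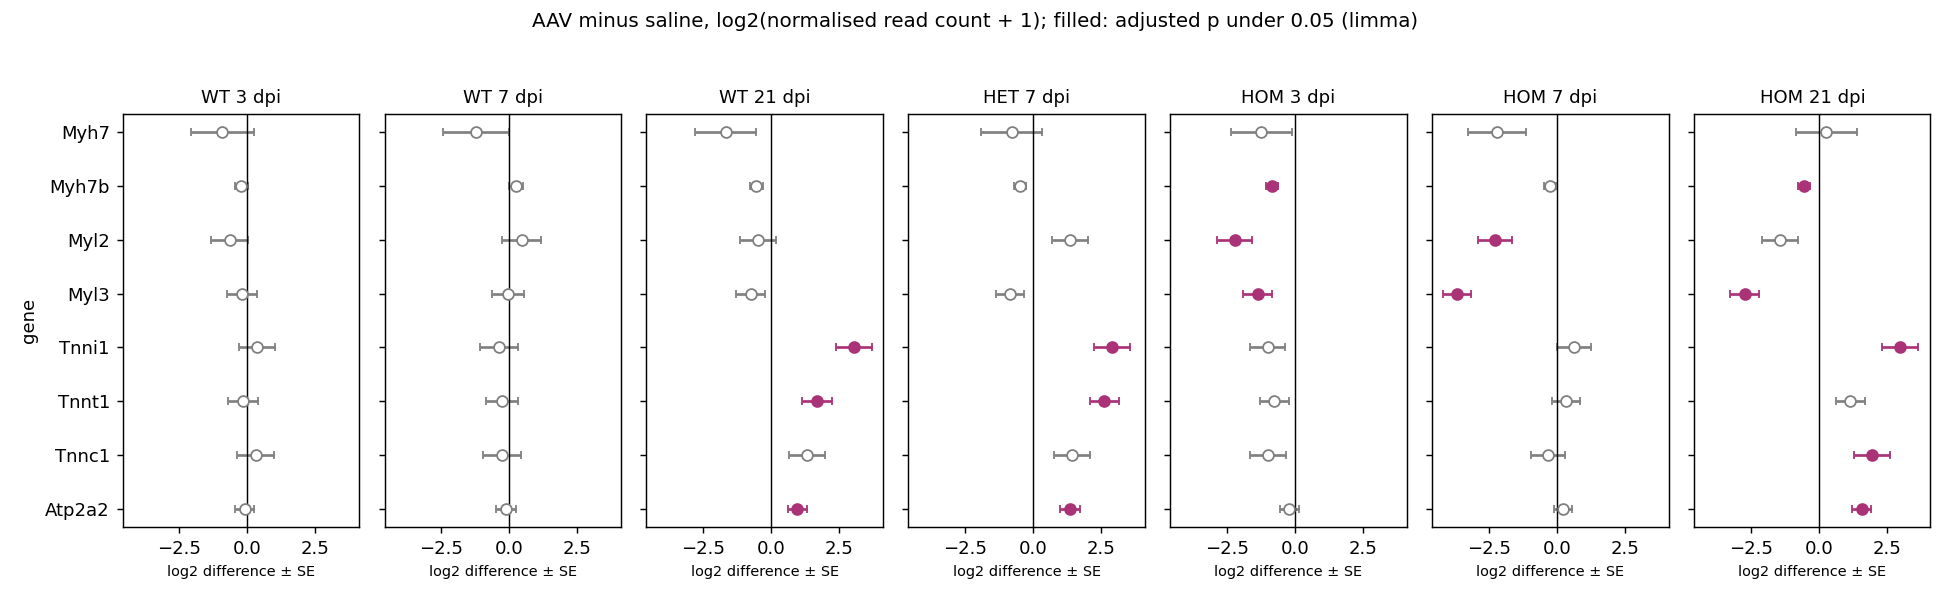
Log2 difference between AAV and saline muscle (x axis, ± SE) for each of the 8 genes (y axis) in each genotype and day, filled where the limma adjusted p is under 0.05. The filled points of Tnni1, Tnnt1 and Atp2a2 lie to the right in WT at 21 dpi and in HET at 7 dpi, and those of Myl3 lie to the left in HOM on all 3 days, farthest at 7 dpi (-3.66).

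The responses of the genotypes were then set against each other by the interaction of genotype and injection. At 7 dpi the response of homozygous muscle lay below that of WT for Myl3 (-3.63 ± 0.77 on the log2 scale, limma adjusted p = 0.000874) and Myl2 (-2.74 ± 0.94, adjusted p = 0.0332), 2 of 8 members against 10.9% of all genes, and 0 of 8 lay above against 9.29%. The Myl3 difference was called without any single library and in every setting, whereas that of Myl2 was lost without any one of 9 of 16 libraries, in edgeR, in DESeq2 and with the replicate number as a block (-2.62 ± 0.98, adjusted p = 0.0541). Mean Myl2 in the AAV groups themselves was 8.23 ± 3.8 normalised counts (SD, n = 5) in homozygous and 7.61 ± 3.96 (n = 4) in WT muscle, and the saline means were 44.4 ± 21.4 (n = 4) and 8.09 ± 9.74 (n = 3). For Myl3 the AAV means were 8.94 ± 5.29 (n = 5) and 81 ± 25.3 (n = 4), and the saline means 110 ± 20.3 (n = 4) and 83.1 ± 33.5 (n = 3). So the lower Myl2 response started from a higher saline level and ended near the WT level, while Myl3 ended below WT.

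Heterozygous muscle differed from WT at 7 dpi in other members. Its response was higher for Tnni1 (3.28 ± 0.95, limma adjusted p = 0.0115), Tnnt1 (2.86 ± 0.80, adjusted p = 0.00837) and Atp2a2 (1.47 ± 0.52, adjusted p = 0.0359), 3 of 8 members against 10.3% of all genes, and lower for 0 of 8 against 9.88%. The Tnnt1 difference held throughout, that of Tnni1 was lost without WT saline replicate 2 (adjusted p = 0.0555), and that of Atp2a2 without any one of 8 of 15 libraries and with pairs of equal number as a block (1.52 ± 0.54, adjusted p = 0.0525). Set against the heterozygous response, the homozygous response at 7 dpi was lower for Myl2 (-3.62 ± 0.90, adjusted p = 0.0121) and Myl3 (-2.82 ± 0.74, adjusted p = 0.0181), 2 of 8 against 2.54%, and higher for 0 of 8 against 0.699%. The Myl3 call there was lost without heterozygous AAV replicate 3 (-2.58 ± 0.77, adjusted p = 0.0524). The troponins were not called in that comparison (Tnnt1 -2.28 ± 0.75, adjusted p = 0.0845, and Tnni1 -2.27 ± 0.89, adjusted p = 0.185). With limma fitted to the homozygous and heterozygous groups of 7 dpi alone, Tnni1 (adjusted p = 0.00309), Tnnt1 (adjusted p = 0.0111) and Atp2a2 (adjusted p = 0.0423) were called lower too. Their means in homozygous and heterozygous AAV muscle were 33.9 and 30.4 for Tnni1, 50.7 and 51.8 for Tnnt1, and 127 and 119 for Atp2a2. With saline the means were 23 and 3.67, 41.7 and 9.22, and 113 and 47.6 in the same order. So the AAV means were near each other, and the saline means were higher in homozygous muscle. The 3 comparisons of responses between genotypes share groups. The transgene stood at 240 ± 68.3 normalised counts (SD, n = 4) in WT, 86.6 ± 24.1 (n = 4) in heterozygous and 22.4 ± 5.39 (n = 5) in homozygous AAV muscle. Responses were thus not measured at equal transgene levels.

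At 3 and 21 dpi the homozygous and WT responses were not told apart for any member. limma, edgeR and DESeq2 called 0 of 8 on both days, against 9.75% and 5.62% of all genes called by limma, and 0 and 1 members had an unadjusted p under 0.05. The 1 was Myl3 at 21 dpi (-1.97 ± 0.75, adjusted p = 0.117), which was called without WT AAV replicate 4 (-2.54 ± 0.73, adjusted p = 0.0228) or homozygous AAV replicate 4 (-2.45 ± 0.75, adjusted p = 0.0215). Between days the homozygous response was also not called for any member by limma, from 3 to 7 dpi (0 of 8, against 5.96% of all genes, with 1 at an unadjusted p under 0.05, 0 by edgeR and 1 by DESeq2) or from 7 to 21 dpi (0 of 8, against 13.8%, with 3 at an unadjusted p under 0.05, 3 by edgeR and 3 by DESeq2). The nearest were Atp2a2 from 7 to 21 dpi (1.36 ± 0.48, adjusted p = 0.0501), Myl3 from 3 to 7 dpi (-2.30 ± 0.74, adjusted p = 0.0507) and Tnni1 from 7 to 21 dpi (2.35 ± 0.89, adjusted p = 0.0691). Without homozygous AAV replicate 4 at 21 dpi, Tnni1 (2.92 ± 0.89, adjusted p = 0.0126), Atp2a2 (1.55 ± 0.50, adjusted p = 0.0178) and Tnnc1 (2.61 ± 0.93, adjusted p = 0.0343) were called from 7 to 21 dpi. The same 3 were called without homozygous saline replicate 1 at 7 dpi.

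A ratio of each slow member to its fast counterpart within a library does not move with the scaling of that library. It is given as a description, without a test. Tnni1 stood at a geometric mean of 0.0737% of its fast counterpart Tnni2 in WT saline muscle at 21 dpi and at 1.05% in WT AAV muscle, and the libraries of the 2 groups did not overlap (log2 ratio -10.41 ± 0.77 and -6.58 ± 1.51, SD, n = 4 and 4). In heterozygous muscle at 7 dpi the Tnni1 share went from 0.0693% to 0.84%, and in homozygous muscle at 21 dpi from 0.13% to 2.09%, both without overlap. In homozygous muscle at 7 dpi, where Tnni1 itself was not called, its ratio to Tnni2 also stood higher with AAV (1.18% against 0.492%, no overlap), as did those of Tnnt1 to Tnnt3 (0.561% against 0.274%) and Atp2a2 to Atp2a1 (0.709% against 0.333%). The ratio of Tnnc1 to Tnnc2 was level there (0.336% against 0.32%), with overlap.

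For the light chains the ratio was lower with AAV in homozygous muscle. Myl3 stood at 1.36% of its fast counterpart Myl1 with saline at 7 dpi and at 0.0919% with AAV, and at 1.42% and 0.198% at 21 dpi, in both cases without overlap. Myl2 stood at 0.661% of Mylpf with saline and 0.139% with AAV at 7 dpi, also without overlap. Myh7 made up 0.217% of the summed fast heavy chains Myh1, Myh2 and Myh4 with saline and 0.0769% with AAV at 7 dpi, and at 21 dpi its share was on the other side, at 0.0349% with saline and 0.101% with AAV, with overlap between the groups on both days. In every group each of these 7 slow forms stayed at 2.18% or less of its fast counterpart by geometric mean, on a scale of counts not corrected for length.

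**Figure D3:**
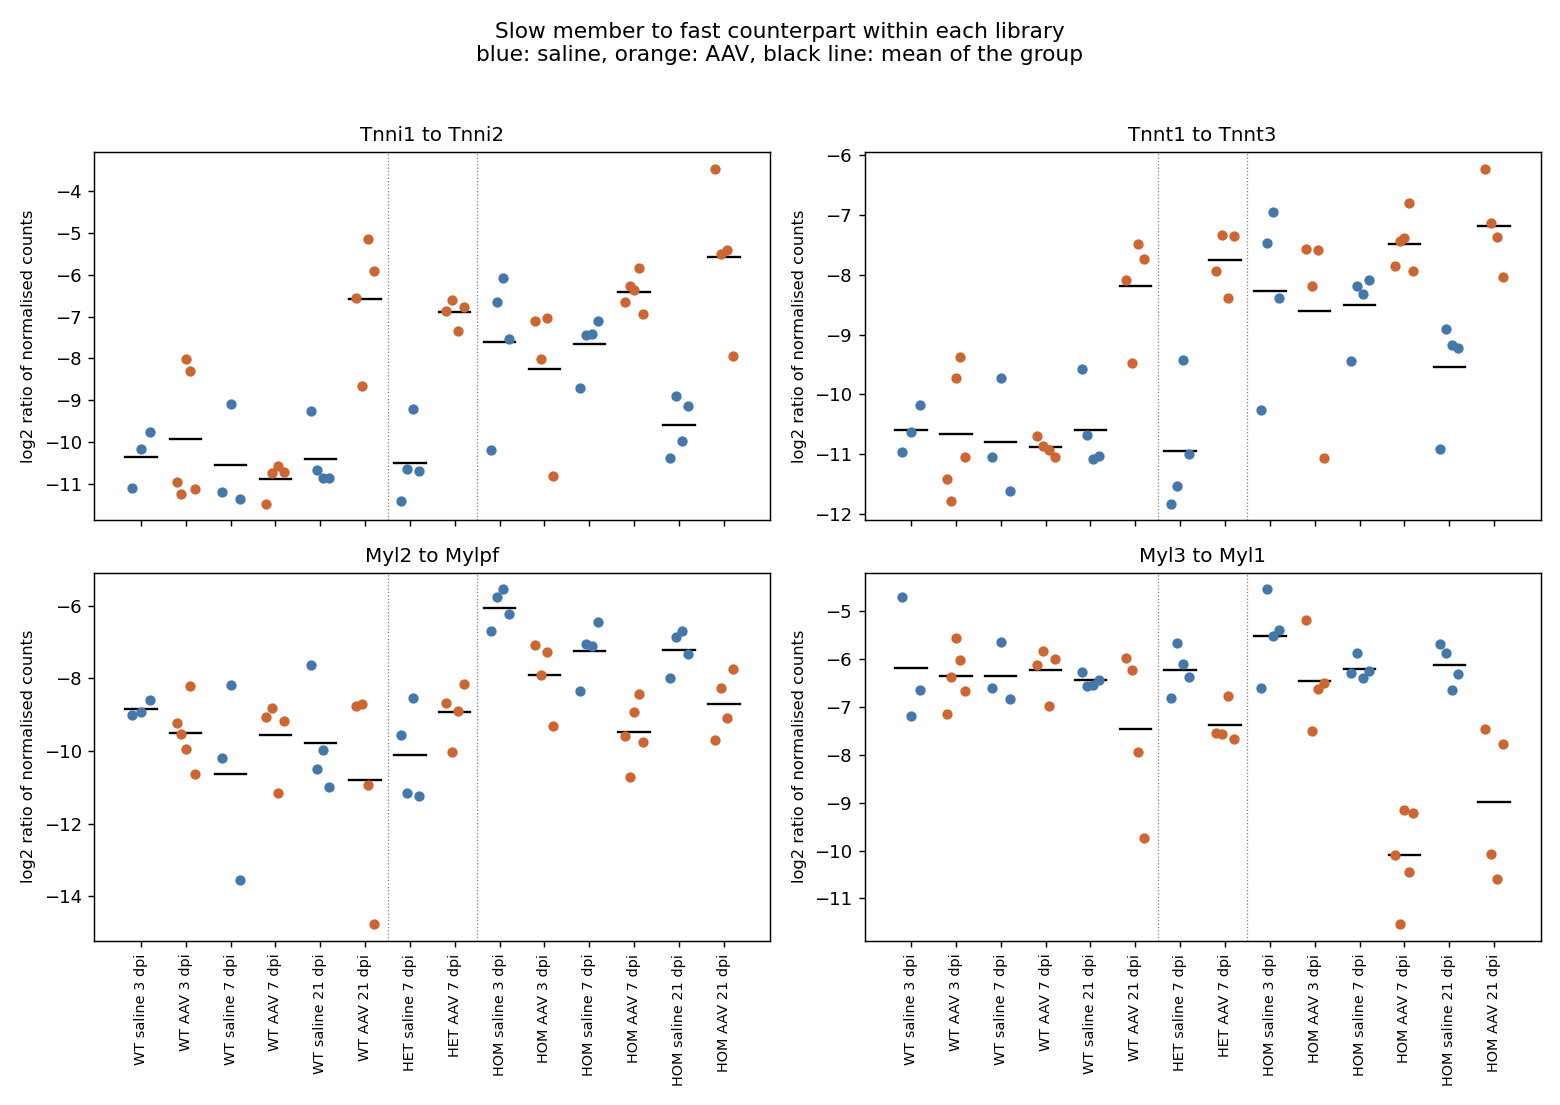
Log2 ratio of normalised counts (y axis) of Tnni1 to Tnni2, Tnnt1 to Tnnt3, Myl2 to Mylpf and Myl3 to Myl1 in every library, by group, with saline in blue, AAV in orange and the group mean as a black line. The troponin ratios stand higher with AAV in WT at 21 dpi and HET at 7 dpi (Tnni1 to Tnni2 from -10.50 to -6.90 in HET), while Myl3 to Myl1 averages -10.09 in HOM AAV muscle at 7 dpi.

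The wider contractile programme was followed in 4 lists. Their counts are to be read against the shares of all genes called higher and lower, which were 19.7% and 21.3% in WT at 21 dpi, 19.6% and 20.8% in heterozygous muscle, and 17.4% and 17.2%, 20.6% and 22.5%, and 29.7% and 29.6% in homozygous muscle at 3, 7 and 21 dpi. Of 14 fast fibre genes, lower calls in AAV muscle numbered 8 in WT at 21 dpi, 7 in heterozygous muscle at 7 dpi and 13, 9 and 11 in homozygous muscle at 3, 7 and 21 dpi, and 1 higher call was made, for Mylpf in heterozygous muscle (0.38 ± 0.14, adjusted p = 0.0231). Their medians ran from -0.73 (homozygous, 21 dpi) to -0.35 (heterozygous) on the log2 scale in these 5 comparisons, beside -0.01 to -0.00 over all genes. At 21 dpi in homozygous muscle the smallest p values belonged to Tnnt3 (-1.15 ± 0.13), Myh4 (-1.85 ± 0.23), Atp2a1 (-1.31 ± 0.18) and Tnnc2 (-0.84 ± 0.13). So fast troponins and the fast pump fell there while slow Tnni1, Tnnc1 and Atp2a2 rose.

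Another 13 slow fibre genes were tested. In heterozygous AAV muscle 7 rose and 1 fell, led by Myl6b, a further slow light chain (2.53 ± 0.29, limma adjusted p = 3.25e-09), Smpx (1.00 ± 0.12), Casq2, a calcium store protein (1.55 ± 0.23), and Csrp3, a Z-disc protein (3.97 ± 0.68). In homozygous muscle 6 fell and 0 rose at 3 dpi, 2 rose and 2 fell at 7 dpi, and 4 rose and 4 fell at 21 dpi, the counts at 7 dpi lying below and those at 21 dpi near the shares of all genes. Those at 21 dpi with the smallest p were Mybpc1, slow myosin binding protein C (-0.65 ± 0.12), Myh6 (-1.25 ± 0.25), Myl6b (1.34 ± 0.29) and Casq2 (0.96 ± 0.23). In WT at 21 dpi 3 rose and 3 fell. In saline muscle 4 and 5 of the 13 were higher in homozygous than in WT libraries at 3 and 21 dpi, against 1.71% and 2.6% of all genes. At 7 dpi 0 of the 13 were higher, against 1.63% of all genes. Csrp3 was among those higher (2.86 ± 0.74 at 3 dpi and 4.14 ± 0.68 at 21 dpi).

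Of 5 developmental contractile genes, 5 rose in WT at 21 dpi and 4 in each of heterozygous muscle at 7 dpi and homozygous muscle at 7 and 21 dpi, with 0 in homozygous muscle at 3 dpi. Embryonic heavy chain Myh3 rose by 5.33 ± 0.59, 4.46 ± 0.59, 3.39 ± 0.55 and 5.60 ± 0.59 on the log2 scale in those 4 comparisons, and perinatal heavy chain Myh8 by 5.02 ± 0.53, 4.05 ± 0.53, 4.55 ± 0.50 and 4.01 ± 0.53. At 7 dpi in homozygous muscle these heavy chains rose while the Tnni1 difference was 0.62 ± 0.62, from a high saline level. Mean Tnni1 there was 33.9 with AAV and 23 with saline, against 30.4 and 3.67 in heterozygous muscle. Satellite cell and myoblast markers (Pax7, Myf5, Myod1 and Myog) summed to 46.2 to 120 in homozygous AAV muscle at 7 dpi. With saline their sum was 25.3 to 49.1, and 1 of 4 was called higher. All 5 endothelial markers were lower in those 4 comparisons, and 5, 5, 4 and 5 of 6 fibroblast markers were higher. Smooth muscle and pericyte markers were lower in 2, 2, 2 and 3 of 5 cases, with 1 higher in the last, and Schwann cell markers in 3, 0, 2 and 0 of 5. The part of these cells in the slow gene results was not tested.

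Of 29 regulators linked to the slow programme most calls were lower. In AAV against saline muscle 14 were lower and 1 higher in WT at 21 dpi, 13 and 5 in heterozygous muscle, and 14 and 2, 13 and 3, and 16 and 2 in homozygous muscle at 3, 7 and 21 dpi. The 5 higher in heterozygous muscle are near the share of all genes called higher (19.6%). Ppp3cb, a catalytic subunit of the phosphatase calcineurin, fell by 0.83 ± 0.12 in heterozygous and by 0.83 ± 0.11 in homozygous muscle at 7 dpi. Rcan1, a calcineurin inhibitor that is itself a target of the pathway, rose in heterozygous muscle (1.81 ± 0.25, limma adjusted p = 1.32e-07), and its response was lower in homozygous than in heterozygous muscle at 7 dpi (-1.51 ± 0.34, adjusted p = 0.0048). Tead1, which binds MCAT letters, fell by 1.19 ± 0.11 at 7 dpi and by 1.36 ± 0.12 at 21 dpi in homozygous muscle. In saline muscle Nfatc2 was higher in homozygous than in WT libraries on all 3 days (0.78 ± 0.16, 1.12 ± 0.16 and 1.14 ± 0.15).

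Within groups, the members did not vary as 1 block. This was described by Pearson's r of the deviations from the group mean of log2(value + 1) over 56 libraries, which share depth and scaling, and no p is given. Tnni1, Tnnt1, Tnnc1 and Atp2a2 varied together at r of 0.90 to 0.93, and each of the 4 had the other 3 in the first 3 places among 13016 genes. Tpm3, a slow tropomyosin, was the next gene for all 4 (r = 0.85 with Tnni1, 0.86 with Tnnt1, 0.88 with Tnnc1 and 0.83 with Atp2a2). After it came Rrm2 (0.73) and Myl4 (0.72) for Tnni1, Nlrc3 (0.66) and Psme2 (0.60) for Tnnt1, Rrm2 (0.61) and Nlrc3 (0.59) for Tnnc1, and Nlrc3 (0.67) and Sln, a pump regulator (0.65), for Atp2a2.

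Of the myosin genes Myh7 was the nearest to that set. It was most like Tnnc1 (0.79) and Tnnt1 (0.76), and among other genes Tpm3 (0.63), Gm31814 (0.51) and Slc2a1 (0.49). Myl2 was most like Myh7 (0.67), and among other genes Pcp4l1 (0.60), Coq8a (0.58) and Fam136a (0.58). Myl3 reached at most 0.39 with another member, Myl2, and varied instead with Ldhb, the lactate dehydrogenase of oxidative muscle (0.84), Atp1b1 (0.76) and Rhou (0.76). Myh7b reached 0.55 with Myl2 and was most like Rps6ka2 (0.66), Rgs5 (0.65) and Txlnb (0.65).

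The ties of Myh7 and of Myl2 to the troponins differed between saline and AAV libraries. Over 26 saline libraries Myh7 varied with Tnni1, Tnnt1 and Tnnc1 at r of 0.95, 0.96 and 0.95, and over 30 AAV libraries at 0.31, 0.50 and 0.58. Myl2 varied with these troponins at 0.64, 0.71 and 0.67 over saline and at -0.12, 0.11 and 0.15 over AAV libraries. Single saline libraries far from their groups in Myh7 were WT replicate 1 at 21 dpi (83.6) and heterozygous replicate 3 at 7 dpi (70.8). The weight of such libraries in r was not tested. The troponins kept an r of 0.88 to 0.93 with each other in the AAV libraries. Myh7b varied with Tnni1 at 0.55 over saline and at -0.50 over AAV libraries. The difference between the 2 sets was not tested.

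**Figure D4:**
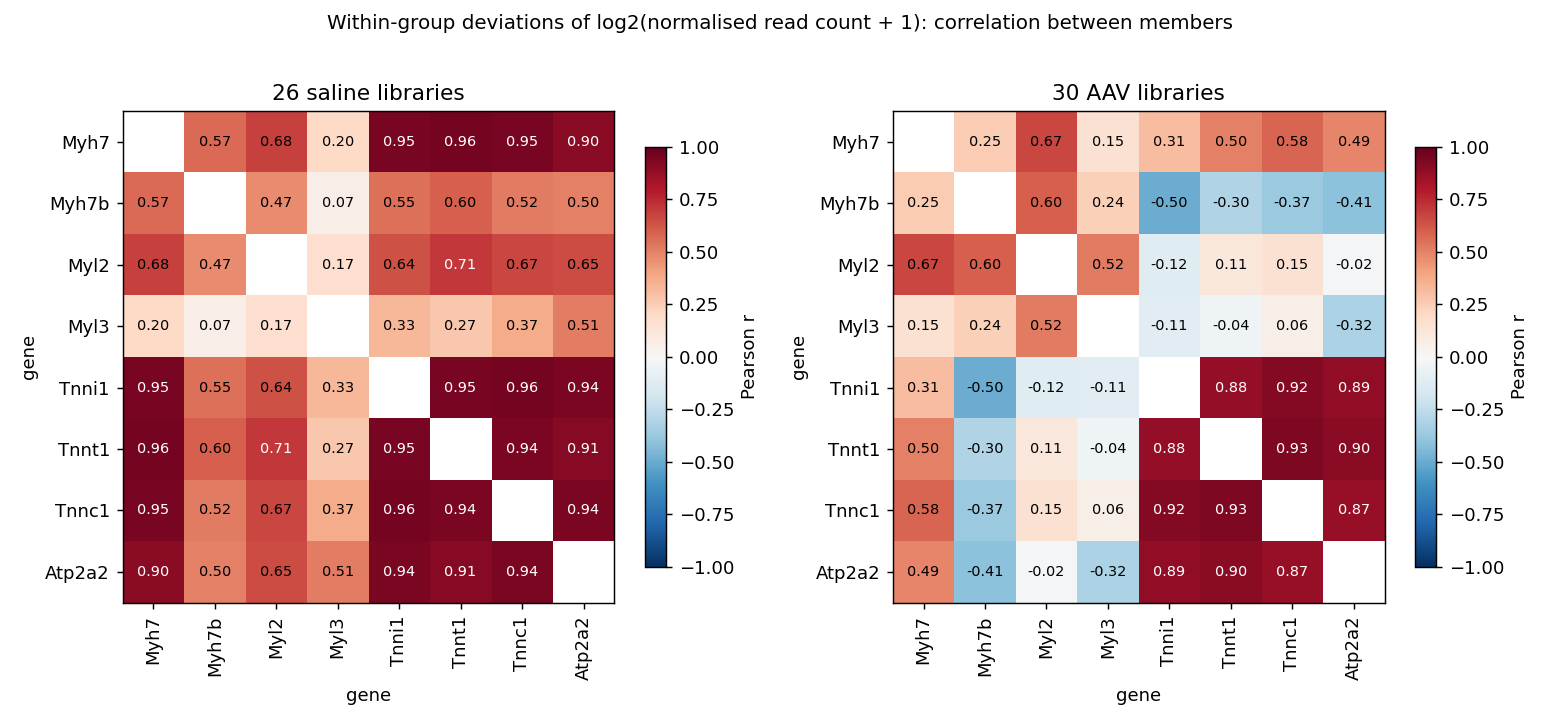
Pearson r between each pair of the 8 genes (both axes) of within-group deviations of log2(normalised read count + 1), over 26 saline libraries (left) and 30 AAV libraries (right), with colour from -1 to 1. Tnni1, Tnnt1, Tnnc1 and Atp2a2 form a block in both panels, which Myh7 joins in saline libraries (0.90 to 0.96) and less so in AAV libraries (0.31 to 0.58).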

How the data were processed

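Total RNA of 56 muscles was sequenced after bead lysis and TRI reagent extraction with a directional library kit (NEBNext Ultra II Directional), per the labels' protocols. Tools listed without versions in the submitters' processing notes are RSEM, Bowtie, limma and FastQC, with GRCm38/mm10 as the genome. No source used here says whether counting used strand. The deposited values are a signal on a linear scale, in which the authors added 0.5 to the reads of each gene and scaled by an effective library size, as recovered from the values. Whole reads were recovered from 99.999% of these deposited values within 0.02 reads. RSEM shares reads between similar genes by estimation. Effective sizes were 0.859 to 1.493 times the read totals.

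The 13017 genes whose mean reached 1 CPM of the column total were tested, and 1853 were left out. The test was limma 3.58.1 (R 4.3.3) with its trend option, applied to log2(value + 1) of all 56 libraries with a mean for each group, for 18 comparisons. Such fold changes understate those of low genes. Because the file turned out to hold normalised values, edgeR 4.0.16 (quasi-likelihood) and DESeq2 1.42.0 on the recovered reads were alternatives only, beside pseudocounts of 0.25 and 4, other filters (none, or 5 CPM), median-of-ratios and quantile scaling, a fit of only the groups compared, blocks, and leaving out each of 56 libraries. The pipeline was tested on simulated data. The closest replicate libraries still differed by more than sampling noise (chi-square per degree of freedom 7.92 or more over 86 pairs). The transgene was left out of the tests.

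Same-numbered saline and AAV samples deviated together over all genes at 21 dpi in homozygous muscle (r of 0.16 to 0.23 over 4 pairs) and at 7 dpi in heterozygous muscle (0.13 to 0.18 over 4 pairs), where the numbers were taken to pair them. This comes from the data and not from the labels, and in the other 5 comparisons not every pair was over an r of 0.1. Of all same-numbered pairs 12 of 26 were over 0.1 (median 0.07), as were 13 of 85 pairs of different number (median -0.05, up to 0.39). The main test did not use the pairs.

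The members and the lists of fast, other slow, developmental and regulator genes and of cell type markers were chosen with earlier results of these data known. Named were the members, their fast counterparts, of each list up to 4 genes with the smallest p among those called, and the 3 genes most like each member. Identifiers were looked up in GENCODE M21 (14861 of 14871 found), and promoter sequences matched 7 of the 8 members, of which 6 lay within 50 bases of an annotated start and were used.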

Additional observations from a re-analysis of the deposited data

Results flagged for a closer look

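Of 96 sets of a member in a group of 4 or 5 libraries, 14 had 1 library far from the rest, by its gap relative to the range of unlogged values. The nominal rate of this rule is about 1 in 20. The sets share libraries and unlogged counts are skewed, so that rate is no measure of chance here. Homozygous saline replicate 1 at 3 dpi, described above as low in several members, was not flagged. WT saline replicate 1 at 21 dpi was far above its group in 5 members, with Myh7 at 83.6, Myl2 at 25.1, Tnni1 at 7.52, Tnnc1 at 10.2 and Atp2a2 at 76.9. Heterozygous saline replicate 3 at 7 dpi was far above in Myh7 (70.8) and Atp2a2 (76.3), and replicate 4 of that group in Myh7b (9.62). Myh7 was also far above in WT AAV replicate 4 at 3 dpi (71.6), WT AAV replicate 4 at 7 dpi (15.5) and WT AAV replicate 1 at 21 dpi (13.7). Far below their groups lay Tnni1 in WT AAV replicate 1 at 7 dpi (1.43) and in heterozygous AAV replicate 3 at 7 dpi (26.3), and Tnnc1 in homozygous saline replicate 1 at 7 dpi (6.34).

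In 7 cases a member's response to AAV at 7 dpi differed between genotypes by the limma interaction test. The homozygous response was lower than that of WT for Myl2 (-2.74, adjusted p = 0.0332) and Myl3 (-3.63, adjusted p = 0.000874), and lower than that of heterozygous muscle for Myl2 (-3.62, adjusted p = 0.0121) and Myl3 (-2.82, adjusted p = 0.0181). The heterozygous response was higher than that of WT for Tnni1 (3.28, adjusted p = 0.0115), Tnnt1 (2.86, adjusted p = 0.00837) and Atp2a2 (1.47, adjusted p = 0.0359).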

How the results depend on the processing

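Of 29 calls of single members, 15 were kept under every alternative and every omitted library. Changes of sign numbered 0 where the main or the alternative fit made a call. Of 3144 member values under alternatives and omitted libraries, 116 changed sign without a call in either fit. The cause of the changes below was not tested. With only the groups compared in the fit, calls numbered 6 for AAV against saline in heterozygous muscle at 7 dpi, 5 for the homozygous minus heterozygous response, 3 for the homozygous response from 7 to 21 dpi, and 1 and 2 for homozygous against WT saline at 3 and 21 dpi. The homozygous minus WT response at 7 dpi gave 1 call in edgeR, in DESeq2 and with the replicate block over all groups, in place of 2, the call of Myl2 being lost. The homozygous response from 3 to 7 dpi gave 1 with a pseudocount of 0.25, with a filter at 5 CPM and in DESeq2. From 7 to 21 dpi it gave 3 with a pseudocount of 4, in edgeR and in DESeq2, and 1 without a filter, with median-of-ratios scaling and with quantile normalization. Homozygous against WT saline gave 6 at 3 dpi in DESeq2, 0 at 7 dpi in edgeR and 0 at 21 dpi in edgeR and DESeq2. Quantile normalization moved the median of all genes to -0.12 in homozygous muscle at 21 dpi.

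With 1 library left out at a time, calls for AAV against saline ranged from 1 to 5 in WT at 21 dpi, 2 to 6 in homozygous muscle at 3 dpi, 4 to 6 at 21 dpi and 3 to 5 in heterozygous muscle. They ranged from 1 to 2 and 0 to 1 for the homozygous minus WT response at 7 and 21 dpi, 2 to 3 for the heterozygous minus WT response, 1 to 3 for the homozygous minus heterozygous response, 0 to 1 and 0 to 3 for the homozygous response from 3 to 7 and 7 to 21 dpi, and 0 to 6, 0 to 4 and 0 to 1 for homozygous against WT saline at 3, 7 and 21 dpi. A block per pair of equal number, chosen after seeing the data, changed no call between AAV and saline at 21 dpi in homozygous or at 7 dpi in heterozygous muscle other than those of Myl2. Low values limit Myl2 and Tnnc1, whose lowest libraries held 8 and 11 reads.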
